A study of Rattus norvegicus with 9 samples.

Results

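The genes described here are 8 transcripts of nerve and its companion cells in the rat gastric lymphatic vessel: the glial genes Sox10 and S100b, the noradrenergic enzymes Dbh and Th, the neuronal genes Uchl1, Prph and Gap43, and the neuropeptide gene Gal. They were picked by symbol from the 18964 genes of the deposited table, with their levels in the 3 groups already known. Their differences of model and of BXD from control are therefore given as a description without a test. Their adjusted p-values for BXD against model are a description too, since those levels were equally known at the choice. The gene lists used below were also chosen with earlier results of these data known. Their counts, medians and adjusted p-values are likewise a description. Of the 14643 genes that passed the filter on low counts, 8 were these genes, and Gal passed through its counts in the stressed groups, since the 3 control libraries held 2 Gal counts together. Poly(A) RNA was sequenced from the vessels that drain lymph from the stomach of wild-type male Sprague-Dawley rats, with 3 libraries in each of 3 groups. Every rat was fasted for 12 h before the experiment. Control rats were not stressed and received distilled water by gavage at 10 ml/kg. Model rats spent 4 h in water 15 cm deep at 22 °C, a stress that produces gastric ulcers, and 30 min later received a control gavage that the sample labels call saline and the treatment protocol calls distilled water. BXD rats went through that stress too and were given a herbal medicine, Banxia Xiexin decoction, in the same volume. The protocol states 6 rats per group and does not tie libraries to rats, and a p-value here therefore reflects only how these libraries vary, which may be technical in part.

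Collecting lymphatic vessels contract, and sympathetic noradrenergic axons that run in the vessel wall and around its arteries release noradrenaline onto the muscle. The cell bodies of these axons sit in ganglia, while Schwann cells, the glia of peripheral nerve, ensheathe the axons along their length. Galanin is a small neuropeptide made by some neurons and released together with classical transmitters, and injured sensory and sympathetic neurons are known to make more of it.

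Total counts per library ran from 12313813 to 13455705, and 3 counts corresponded to 0.195 to 0.269 CPM (counts scaled to library size, with sizes adjusted for composition by the TMM method). Markers of lymphatic endothelium were present in every library, with Prox1 between 13.9 and 100.2 CPM and Lyve1 between 85.5 and 304 CPM. The 9 libraries did not hold nerve transcripts evenly within a group: control replicate 2 had the highest level of 6 of 11 tested noradrenergic genes and 21 of 29 other neuronal genes among all 9 libraries, and BXD replicate 3 had the highest level within its group of 10 of those 11 and 22 of those 29. Many results that rest on these libraries are given with and without them, while some values of single genes are given only with all libraries. Since each library is bulk RNA of a vessel, fewer cells or axons of a type and less RNA per cell cannot be told apart.

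Promoter sequences are shown for Th and Dbh, 2 enzymes of noradrenaline synthesis whose levels moved together across libraries, and for Gal, which was nearly absent from the control libraries. They are the 250 bases before the annotated transcription start, written 5′ to 3′ on the strand of the gene, from RefSeq on the GRCr8 build, at chr1:207508219-207508468 (minus strand), chr3:30886078-30886327 (plus strand) and chr1:210084573-210084822 (minus strand). Capitals mark the letters of 3 motifs searched on both strands, the cyclic AMP response element TGACGTCA, its half-site TGACG, which lies within the full element, and the TATA box TATAAA.
Th: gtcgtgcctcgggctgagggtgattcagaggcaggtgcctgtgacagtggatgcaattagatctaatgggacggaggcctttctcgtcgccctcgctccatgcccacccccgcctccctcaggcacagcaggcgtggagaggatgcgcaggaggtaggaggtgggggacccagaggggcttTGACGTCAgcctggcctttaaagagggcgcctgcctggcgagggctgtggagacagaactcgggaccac
Dbh: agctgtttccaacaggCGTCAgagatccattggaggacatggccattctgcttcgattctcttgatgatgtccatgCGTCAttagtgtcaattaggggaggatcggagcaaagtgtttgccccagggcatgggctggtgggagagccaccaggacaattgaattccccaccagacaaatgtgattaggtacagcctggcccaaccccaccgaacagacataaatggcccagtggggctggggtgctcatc
Gal: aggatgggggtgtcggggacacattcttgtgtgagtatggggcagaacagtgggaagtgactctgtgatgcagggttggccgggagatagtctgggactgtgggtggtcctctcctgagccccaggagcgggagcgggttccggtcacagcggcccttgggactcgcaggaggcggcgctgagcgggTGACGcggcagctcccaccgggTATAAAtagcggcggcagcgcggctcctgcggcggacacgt
The Th window holds the full element at -69 to -62 from the start, as do 1.59% of the 33469 promoter windows of the same length. The Dbh window holds 2 half-sites on the reverse strand, at -234 to -230 and -174 to -170, and the Gal window holds a half-site at -63 to -59, a match found in 18.2% of all windows. A TATA box lies at -41 to -36 in Gal and at -35 to -30 in Prph, and on the reverse strand at -29 to -24 in Uchl1, and 12.9% of all windows hold one. Of the 8 genes, 6 had a sequence in the promoter table, without Sox10 and Gap43. These matches describe letters in the windows and were not tested as sites.

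Sox10 is the transcription factor that specifies Schwann cells and keeps them in that state (gene 29361, chromosome 7, 120393238 to 120403523 in Rnor_6.0, minus strand). It was measured at 31.7, 20.6 and 16.5 CPM in control replicates 1 to 3, at 2.10, 3.67 and 2.66 CPM in model, and at 5.26, 11.9 and 11.4 CPM in BXD. The 3 groups did not overlap, with every control library above every BXD library and every BXD library above every model library. Its level in model was 8.15-fold lower than in control, a log2 fold change of -3.03 (SE 0.39), and leaving out single libraries left it between -3.26 and -2.73. BXD was 3.39-fold above model, or 1.76 on the log2 scale (SE 0.38, edgeR adjusted p = 0.0959), and higher in 3 of 3 libraries. That difference missed the threshold of 0.05 with all libraries and passed it without BXD replicate 1 (log2 fold change 2.05, adjusted p = 0.0393). In edgeR the adjusted p rose to 0.141 without control replicate 2, 0.245 without model replicate 2 and 0.141 without BXD replicate 3. DESeq2 with all libraries gave an adjusted p of 0.00111. The authors' deposited table lists a q-value of 0.00434 for the same comparison. Against control, Sox10 in BXD was lower by a log2 fold change of -1.27 (SE 0.35).

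S100b, the calcium-binding protein used as a marker of Schwann cells and other glia, is also made by fat cells (gene 25742, chromosome 20, 13128170 to 13142856, minus strand). Its levels were 155, 185 and 148 CPM in control, 287, 447 and 305 CPM in model, and 143, 223 and 296 CPM in BXD. All model libraries lay above all control libraries, and the BXD libraries overlapped both other groups. The log2 fold change was 1.09 (SE 0.26) for model against control, the opposite direction to Sox10, and 0.44 (SE 0.26) for BXD against control. BXD against model gave -0.65 (SE 0.26, adjusted p = 0.203 in edgeR). Model replicate 2 held the highest S100b level and also the highest mean of the adipocyte markers, 10.1 in log2 CPM, where model replicates 1 and 3 had 9.31 and 9.40. That list of 22 genes summed to 10222 to 12555 CPM in control, 28791 to 54592 CPM in model and 19774 to 26578 CPM in BXD, and 20 of its genes rose and 1 fell in model against control. Its part in the S100b result was not tested.

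**Figure D1:**
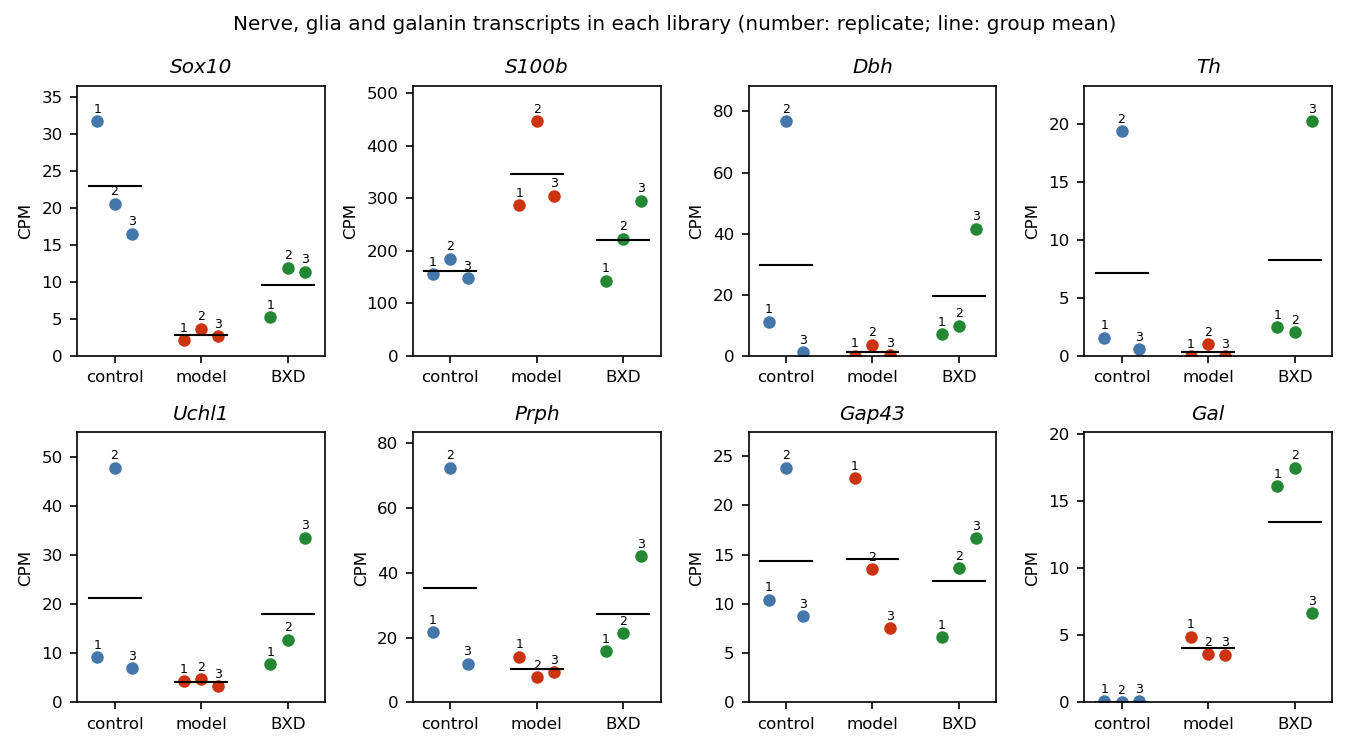
Level of each of the 8 genes in every library, in CPM on a linear axis that differs between panels. Numbers beside points are replicate numbers and lines are group means. Sox10 separates the 3 groups, Dbh, Th, Uchl1 and Prph are highest in control replicate 2 or BXD replicate 3, and Gal is at 0.07 CPM or less in the control libraries.

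Other glial genes were lower in model, as Sox10 was. This list and the other nerve lists were chosen with earlier results known, so the counts that follow only describe them. Among 33 tested Schwann cell and glia genes besides Sox10 and S100b, 26 fell and 1 rose in model against control, where 20.6% of all tested genes were called lower and 21.6% higher, 42.2% in all, at an adjusted p under 0.05, the threshold for a call throughout. The median log2 fold change of the list was -1.31, beside -0.01 over all genes tested. Erbb3, the receptor through which Schwann cells read axonal neuregulin, had 81.6, 63.7 and 41.7 CPM in control, 20.6, 27.6 and 28.9 CPM in model and 34.2, 34.4 and 30.3 CPM in BXD. It fell in model by 1.28 on the log2 scale (SE 0.23, adjusted p = 0.00313 in edgeR), and all model libraries lay below all control libraries. Dhh, the hedgehog ligand secreted by Schwann cells, fell by 1.38 (SE 0.23, adjusted p = 0.00205), and Fa2h, which hydroxylates the fatty acids of myelin lipids, fell by 2.05 (SE 0.33, adjusted p = 0.00207).

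The glial list did not rest on control replicate 2: without it, 23 genes were lower and 1 higher, and the median was -1.37. Without that library 29.1% of all tested genes were called, in place of 42.2%. Control replicate 1 had the highest level of 22 of the 33 genes among the 9 libraries and model replicate 1 the lowest of 21. In BXD against model edgeR called 0 of the 33 genes, with a median log2 fold change of 0.67. At an unadjusted p under 0.05, 15 were higher and 1 lower, but the share of all genes at that cut is not given. These 2 counts therefore only describe the list. DESeq2, fitted to 36 genes of the list, called 2 higher and 1 lower, where it called 5.76% of all genes. With limma on FPKM, 0 were called. Foxd3, a transcription factor of neural crest and glial precursors, had the smallest p, at 1.62 on the log2 scale (SE 0.49, adjusted p = 0.135). Postn, the matrix protein periostin, followed with -0.43 (SE 0.14, adjusted p = 0.143), and fibroblasts make it too. Against control, BXD had 3 genes of the list called lower, Dhh, Erbb3 and Fa2h, and 1 higher, where 14.3% and 16.1% of all genes were called lower and higher, 30.3% in all. That count of 3 depended on the scaling and on single libraries. It was 14 with library size alone, 12 with upper quartile scaling, 8 with DESeq2 over 36 genes, and 13 and 14 with limma on FPKM + 0.1 and FPKM + 1. Without control replicates 1, 2 and 3 in turn it was 0, 1 and 10, and without any 1 of the model libraries it was 5. Leaving out those control libraries in turn also lowered the share of all tested genes called from 30.3% to 19.1%, 18.4% and 18.9%.

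Dbh encodes dopamine beta-hydroxylase, the enzyme that turns dopamine into noradrenaline (gene 25699, chromosome 3, 5709236 to 5731895, plus strand). Its levels were 11.2, 76.8 and 1.33 CPM in control, 0.09, 3.67 and 0.23 CPM in model and 7.01, 9.89 and 41.7 CPM in BXD. The control libraries spanned a 57.7-fold range that overlapped both other groups, whereas every BXD library lay above every model library. Model against control gave a log2 fold change of -4.52 (SE 1.61), which shrank to -2.28 without control replicate 2 and grew to -7.44 without model replicate 2. For BXD against model it was 3.91 (SE 1.60, adjusted p = 0.214 in edgeR), and 2.70 without BXD replicate 3.

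Th encodes tyrosine hydroxylase, the rate-limiting enzyme of catecholamine synthesis (gene 25085, chromosome 1, 216073034 to 216080287, minus strand). It was counted 22, 298 and 8 times in control, 0, 11 and 0 times in model and 30, 26 and 268 times in BXD, or 1.56, 19.3 and 0.56 CPM, 0, 0.99 and 0 CPM, and 2.50, 2.04 and 20.2 CPM. As with Dbh, 1 control library and 1 BXD library held most of the signal, and the BXD libraries lay above the model libraries. The 0 counts of model replicates 1 and 3 allow a level of up to 0.263 and 0.228 CPM, counting error only. Model against control gave a log2 fold change of -4.47 (SE 1.78), -1.74 without control replicate 2 and -9.57 without model replicate 2. BXD against model gave 4.68 (SE 1.78, adjusted p = 0.187 in edgeR), and 2.81 without BXD replicate 3. Against control, BXD differed by a log2 fold change of -0.61 (SE 1.27) for Dbh and 0.20 (SE 1.32) for Th. The direction of both turned with single libraries: without control replicate 2 Dbh gave 1.64 and Th 2.95, and without BXD replicate 3 they gave -1.82 and -1.65.

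The remaining noradrenergic genes moved with these libraries. Of 20 such genes besides Th and Dbh, 11 were tested, and 2 fell in model against control, among them Slc6a2. That was no larger a share than the 20.6% of all tested genes called lower. Slc6a2, the noradrenaline transporter that returns the transmitter to the axon, was at 2.34, 22.8 and 0.28 CPM in control, 0, 0.63 and 0.08 CPM in model and 0.92, 2.35 and 7.55 CPM in BXD (log2 fold change in model -5.17, SE 1.70, adjusted p = 0.0367). Control and model overlapped for Slc6a2, with 1 control library below model replicate 2. Without control replicate 2 the median log2 fold change went from -2.96 to -0.93, and 29.1% of all genes were called in place of 42.2%. Of the 11 genes edgeR then called 0. Leaving out any 1 of the model libraries also left 0 called, now of 14 genes tested, whereas 7 were called lower without control replicate 3, 5 without BXD replicate 3 and 9 of 20 by DESeq2. In BXD against model 11 of 11 were fitted higher, with a median of 2.72, and edgeR called 0, with 7 higher at an unadjusted p under 0.05. No share of all genes at that unadjusted p is given beside the 7, which only describe the list. DESeq2, fitted to 20 genes of the list, called 2 higher, where it called 5.76% of all genes. With limma on FPKM, 0 of the 11 were called. Without control replicate 2 and BXD replicate 3, a setting chosen after the data were seen, that median was 1.37 over the 9 genes that could then be tested.

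Uchl1 encodes the ubiquitin hydrolase PGP9.5, which stains nerve fibres of every kind (gene 29545, chromosome 14, 43133224 to 43143942, minus strand). It was measured at 9.16, 47.8 and 6.94 CPM in control, 4.38, 4.75 and 3.34 CPM in model and 7.76, 12.8 and 33.5 CPM in BXD. The model libraries lay below all others and close together, within a 1.42-fold range, while control and BXD overlapped. The log2 fold change of model against control was -2.36 (SE 0.81), and -0.97 without control replicate 2. BXD against model gave 2.12 (SE 0.80, adjusted p = 0.185 in edgeR), and 1.31 without BXD replicate 3. The authors' deposited table lists a q-value of 0.00419 for BXD against model, whereas DESeq2 fitted here gave an adjusted p of 0.107.

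Prph encodes peripherin, an intermediate filament of peripheral axons (gene 24688, chromosome 7, 140742406 to 140746197, plus strand). Its levels were 21.6, 72.4 and 11.9 CPM in control, 14.1, 7.89 and 9.34 CPM in model and 15.8, 21.3 and 45.1 CPM in BXD. Control overlapped model through replicate 3, and the BXD libraries lay above the model libraries. Model against control gave a log2 fold change of -1.76 (SE 0.66), and -0.70 without control replicate 2, and BXD against model gave 1.39 (SE 0.65, adjusted p = 0.262 in edgeR), and 0.83 without BXD replicate 3. The authors' deposited table lists a q-value of 0.0347 for Prph in BXD against model, whereas DESeq2 fitted here gave an adjusted p of 0.125. For BXD against control the log2 fold changes of Uchl1 and Prph, -0.24 (SE 0.74) and -0.37 (SE 0.62), turned to 1.16 and 0.71 without control replicate 2.

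Gap43 encodes a growth cone protein that neurons make while axons extend or regrow (gene 29423, chromosome 11, 58624198 to 58717916, plus strand). It stood at 10.4, 23.8 and 8.76 CPM in control, 22.8, 13.5 and 7.52 CPM in model and 6.60, 13.7 and 16.7 CPM in BXD. The 3 groups overlapped, and model replicate 1, in which Uchl1 was at 4.38 CPM, held nearly as much Gap43 as control replicate 2. The log2 fold changes were 0.02 (SE 0.50) for model against control, -0.24 (SE 0.51, adjusted p = 0.816 in edgeR) for BXD against model and -0.22 (SE 0.51) for BXD against control. Each of these was smaller than its SE.

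**Figure D2:**
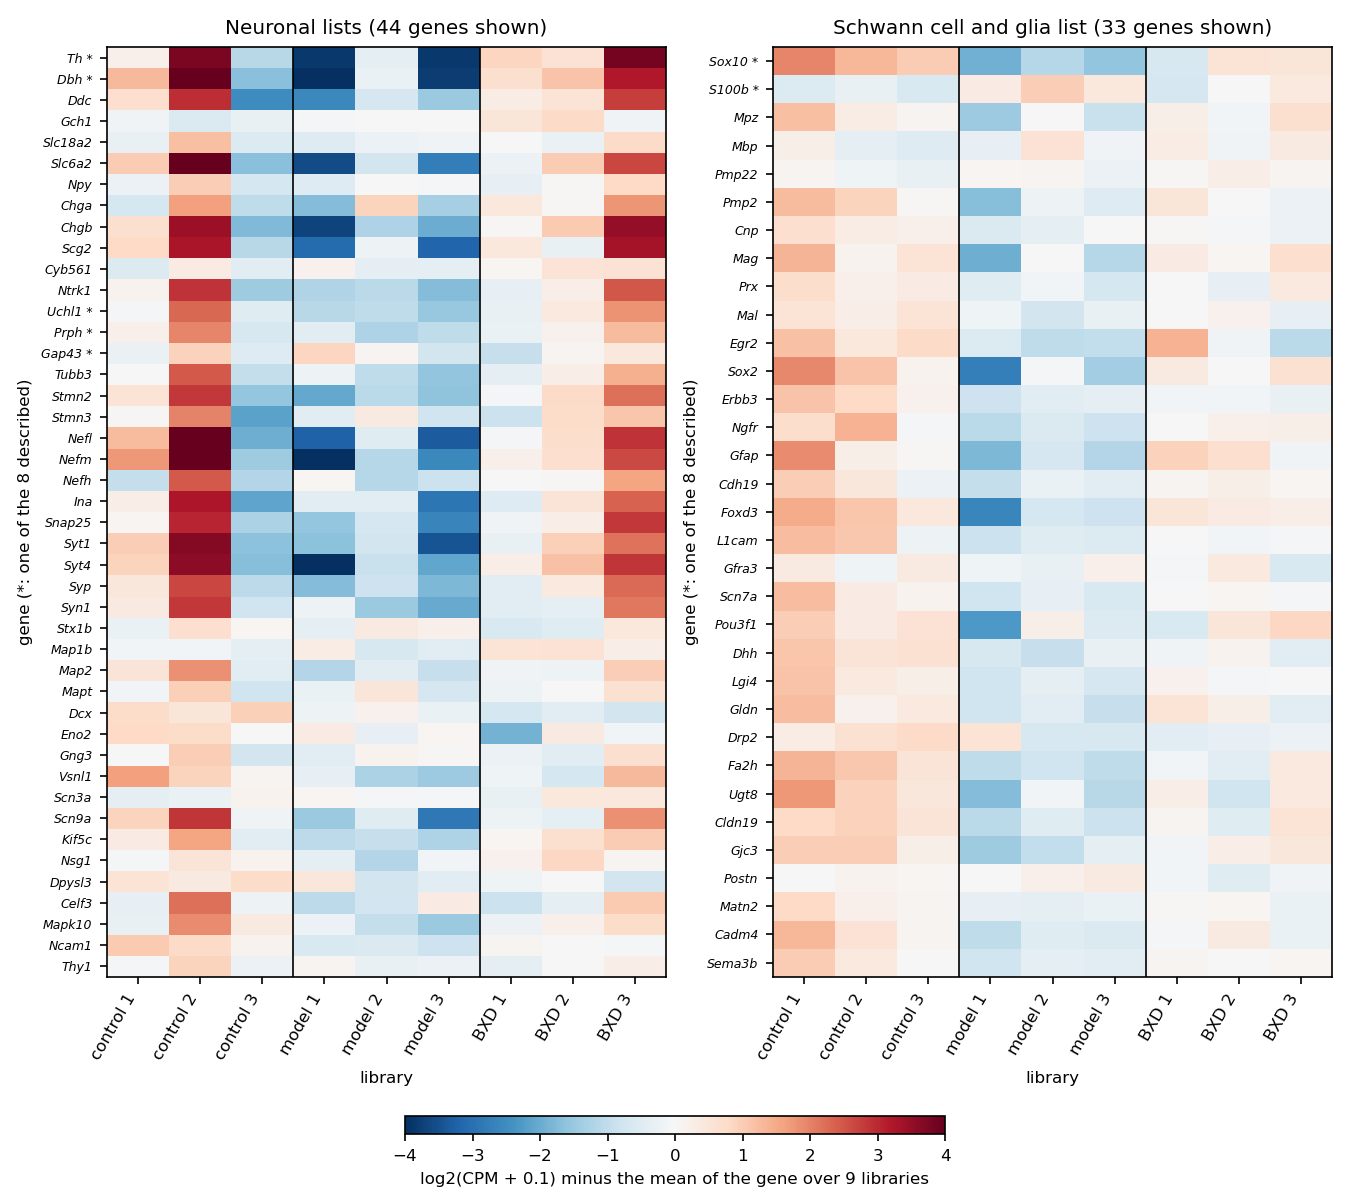
Deviation of each gene shown from its own mean over the 9 libraries, as log2(CPM + 0.1), for noradrenergic and other neuronal genes (left) and glial genes (right), with asterisks on genes described in full. Columns are libraries, red is above and blue below the mean, and the scale ends at -4 and 4. Neuronal genes are red mainly in control replicate 2 and BXD replicate 3, and most glial genes are red in the control libraries.

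Among 29 tested neuronal genes besides Uchl1, Prph and Gap43, 13 fell and 0 rose in model against control, beside 20.6% and 21.6% of all tested genes. At an unadjusted p under 0.05, 0 were higher, and DESeq2 and limma on FPKM called 0 higher too. The median log2 fold change was -1.82. Ncam1, the neural cell adhesion molecule found on axons and Schwann cells, was at 63.5, 51.9 and 33.8 CPM in control, 19.8, 20.5 and 17.2 CPM in model and 32.7, 30.8 and 29.2 CPM in BXD, and fell in model by 1.38 on the log2 scale (SE 0.21, adjusted p = 0.00148). Dcx, the microtubule protein doublecortin, fell by 0.84 (SE 0.21, adjusted p = 0.0123), and Kif5c, a kinesin motor of axonal transport, fell by 1.85 (SE 0.51, adjusted p = 0.0181). Ncam1 and Dcx were lower in every model library than in any control library, and so was Kif5c. Nefm, the medium neurofilament of large axons, was at 6.53, 36.0 and 0.63 CPM in control and 0, 0.81 and 0.23 CPM in model, and its groups overlapped (log2 fold change -5.37, SE 1.56, adjusted p = 0.0232). Without control replicate 2 the count of neuronal genes called lower went from 13 to 2, and the median to -0.96. The share of all tested genes called, in either direction, also went from 42.2% to 29.1%. Without model replicates 1, 2 and 3 in turn the count was 6, 4 and 3, with medians of -2.31, -1.92 and -1.77, and limma on FPKM + 0.1 and FPKM + 1 called 8 and 5 lower.

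In BXD against model 25 of the 29 neuronal genes were fitted higher, with a median log2 fold change of 1.19, and edgeR called 0, with 9 higher and 1 lower at an unadjusted p under 0.05. No share of all genes at that unadjusted p is given beside these counts, which only describe the list. DESeq2, fitted to 34 genes of the list, called 5 higher, where it called 5.76% of all genes, and limma on FPKM called 0. Kif5c, at 1.49, 1.61 and 1.29 CPM in model and 3.34, 5.02 and 6.49 CPM in BXD, had the smallest p (log2 fold change 1.76, SE 0.51, adjusted p = 0.128), and Ncam1 followed with 0.69 (SE 0.21, adjusted p = 0.134). In BXD against control Dcx and Ncam1 were called lower, by 1.36 (SE 0.21, adjusted p = 0.00246) and 0.69 (SE 0.20, adjusted p = 0.0306) on the log2 scale.

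**Figure D3:**
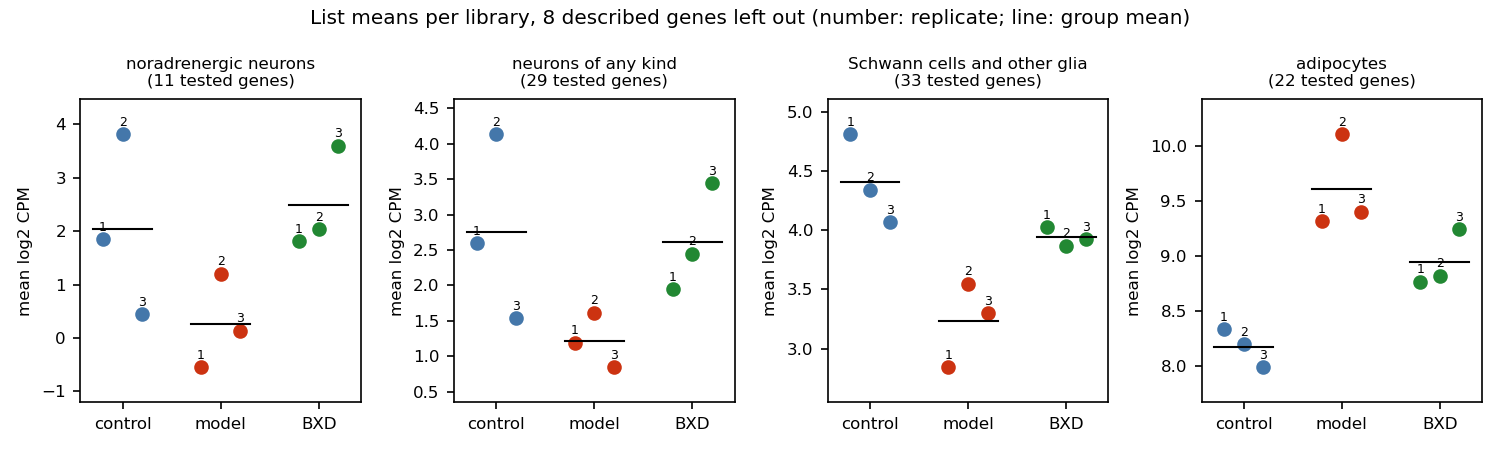
Mean log2 CPM of the tested genes of 3 nerve lists and of the adipocyte markers in each library, with the 8 described genes left out. Numbers are replicate numbers and lines are group means. The neuronal means are highest in control replicate 2 and BXD replicate 3, at 4.14 and 3.44 for neurons of any kind, the 3 control libraries have the highest glial means, 4.07 to 4.81, and the 3 model libraries have the highest adipocyte means.

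Gal encodes the precursor of galanin (gene 29141, chromosome 1, 218653059 to 218657922, minus strand). It was counted 1, 0 and 1 times in control, 56, 40 and 47 times in model and 193, 223 and 88 times in BXD. In CPM these were 0.07, 0 and 0.07 in control, 4.91, 3.58 and 3.57 in model, and 16.1, 17.5 and 6.64 in BXD, so the 3 groups did not overlap, with control lowest and BXD highest. By counts model was 87.5-fold above control, with a 95% counting interval of 23.8 to 730, and BXD 290-fold above control, with an interval of 79.97 to 2404, and both rest on 2 control counts. BXD was 3.33-fold above model, or 1.74 on the log2 scale (SE 0.39, edgeR adjusted p = 0.0963), and higher in 3 of 3 libraries. That missed the threshold, whereas DESeq2 gave an adjusted p of 0.00318 and the authors' deposited table lists a q-value of 0.00337. Gal was highest in BXD replicates 1 and 2, while Dbh, Th, Uchl1 and Prph were highest in BXD replicate 3, where Gal was lowest of its group.

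Galr2, a galanin receptor, was the other gene of the galanin list with enough counts to be tested. It was at 1.77, 3.31 and 2.52 CPM in control, 2.63, 1.16 and 1.14 CPM in model and 2.84, 4.00 and 3.93 CPM in BXD. BXD lay above model without overlap (log2 fold change 1.13, SE 0.39, adjusted p = 0.164 in edgeR), and model against control gave -0.63 (SE 0.40, adjusted p = 0.225). Spx, which encodes the galanin-related peptide spexin, Galr3, a further galanin receptor, and Gpr151, an orphan receptor related to them, reached at most 0.36 CPM and were not tested.

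Further genes that neurons or their glia are known to switch on after nerve injury were measured too. Of 15 tested besides Gal and Gap43, 1 rose and 6 fell in model against control, beside 21.6% and 20.6% of all tested genes. The median log2 fold change was -0.38. Without control replicate 2 edgeR called 0, with a median of -0.10, where it called 29.1% of all genes in place of 42.2%. The 6 lower calls became 3 and 2 without control replicates 1 and 3, and 3, 0 and 2 without model replicates 1, 2 and 3. Socs3, the feedback inhibitor of cytokine signalling, rose from 17.9, 13.3 and 22.9 CPM in control to 104, 50.3 and 70.6 CPM in model, and stood at 349, 118 and 52.5 CPM in BXD (log2 fold change in model 2.06, SE 0.61, adjusted p = 0.0257). Many cell types make Socs3, and its highest level was in BXD replicate 1. Tubb2b, a neuronal beta-tubulin, Flrt3, an adhesion protein, Gfra1, a receptor for glial cell line-derived neurotrophic factor, and Ecel1, an endopeptidase of injured neurons, fell by 1.12, 1.05, 0.74 and 1.39 on the log2 scale (adjusted p of 0.0338, 0.0395, 0.0421 and 0.044). In BXD against control, where 16.1% of all tested genes were called higher and 14.3% lower, 3 genes of this list were called higher and 1 lower. These were Socs3 (log2 fold change 3.26), Gadd45a, a stress-induced growth arrest protein (1.00), Il6, the cytokine interleukin 6 (3.34), and in the lower direction Stmn4, a neuronal stathmin, which fell by 1.35. Il6 stood at 26.4, 3.77 and 1.21 CPM in the BXD libraries, and BXD replicate 1 held most of its signal.

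Neuropeptide precursors are cut and packed by a shared set of enzymes and granule proteins. Of 8 tested genes of that kind, 1 rose and 3 fell in model against control, beside 21.6% and 20.6% of all tested genes. Without control replicate 2, 1 rose and 2 fell of 7 tested, where 29.1% of all genes were called. The median log2 fold change of the list went from -1.06 to -0.40. Pcsk1n, the inhibitor of prohormone convertase 1, was at 8.31, 8.25 and 4.14 CPM in control, 2.01, 2.24 and 1.14 CPM in model and 6.51, 6.75 and 7.47 CPM in BXD. It fell in model by 1.94 on the log2 scale (SE 0.34, adjusted p = 0.0028), and the model libraries were lowest without overlap. BXD against model gave 1.95 (SE 0.34, adjusted p = 0.0763 in edgeR), which missed the threshold. Scg3, a granin of secretory granules, fell by 1.60 (SE 0.43, adjusted p = 0.0157). Cadps, a priming factor for dense-core vesicles, was also called lower, from 0.71, 7.14 and 0.14 CPM in control to 0, 0.18 and 0 CPM in model. Furin, a convertase found in most cells, rose by 0.86 (SE 0.12, adjusted p = 0.00114). Cpe, carboxypeptidase E, gave 0.83 (SE 0.29, adjusted p = 0.162) for BXD against model.

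Neurotrophic signals and receptors for nerve transmitters, made in part by the vessel wall, were also compared. Among 19 tested neurotrophic genes, 9 fell and 1 rose in model against control, beside 20.6% and 21.6% of all tested genes. Their median log2 fold change was -0.74. Artn, the ligand artemin that guides sympathetic axons along vessels, was at 6.11, 9.48 and 9.11 CPM in control, 3.15, 2.24 and 2.28 CPM in model and 6.18, 4.79 and 4.30 CPM in BXD, without overlap between control and model. It fell by 1.68 on the log2 scale (SE 0.26, adjusted p = 0.00175), and Ntf3, neurotrophin 3, fell by 0.93 (SE 0.23, adjusted p = 0.0115). Ngfr, the low-affinity neurotrophin receptor of Schwann cells and axons, fell by 1.62 (SE 0.32, adjusted p = 0.00458). Nrtn, neurturin, rose by 0.87 (SE 0.27, adjusted p = 0.0279). Bdnf, brain-derived neurotrophic factor, gave the smallest p of the list in BXD against model (log2 fold change 1.89, SE 0.48, adjusted p = 0.111). Against control, Erbb2, the partner of Erbb3, was called lower in BXD by 1.06 (SE 0.24, adjusted p = 0.0115), as was Erbb3.

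Of 19 tested receptors for transmitters, 7 fell and 1 rose in model against control, with a median log2 fold change of -0.77. Among all tested genes 20.6% were called lower and 21.6% higher, 42.2% in all, so the receptors were called about as often as other genes. Calcrl, the receptor for calcitonin gene-related peptide and adrenomedullin, was at 132, 172 and 167 CPM in control and 85.7, 54.6 and 82.6 CPM in model and fell by 1.08 (SE 0.24, adjusted p = 0.0071). Its partner Ramp1 rose by 0.63 (SE 0.15, adjusted p = 0.0101). Vipr2, a receptor for vasoactive intestinal peptide, and the noradrenaline receptors Adra2a and Adra2b fell by 0.87, 0.97 and 0.97 (adjusted p of 0.00988, 0.0152 and 0.0345). In BXD against control the noradrenaline receptors Adra1a and Adra1d were called lower by 1.37 and 1.62 on the log2 scale, while Ramp1 was called higher by 0.52 and Calcrl lower by 0.87. Of the 24 genes of cholinergic, peptidergic and sensory neurons, 9 were tested and 1 was called lower in model, Avil, the sensory neuron protein advillin (log2 fold change -3.26, SE 0.82, adjusted p = 0.0126). Control replicate 2 held 16.7 CPM of Avil, and control replicates 1 and 3 held 3.90 and 1.61 CPM. Trpv1, the capsaicin receptor, was called lower in BXD against control by 1.16 (SE 0.36, adjusted p = 0.0383). Over all these lists, 64 of 137 tested genes fell and 5 rose in model against control, and 35 fell without control replicate 2, 38 without model replicate 2, 35 without model replicate 3, and 33 without control replicate 2 and BXD replicate 3. The neurotrophic list had 5 genes called lower without control replicate 2 and 5 without model replicate 2. The receptor list had 4 without control replicate 2 or 3, 3 without model replicate 2 and 2 without model replicate 3. The share of all tested genes called was 42.2% with all libraries and 29.1% without control replicate 2. Some genes belong to more than 1 list, and the lists were chosen with earlier results of these data known.

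**Figure D4:**
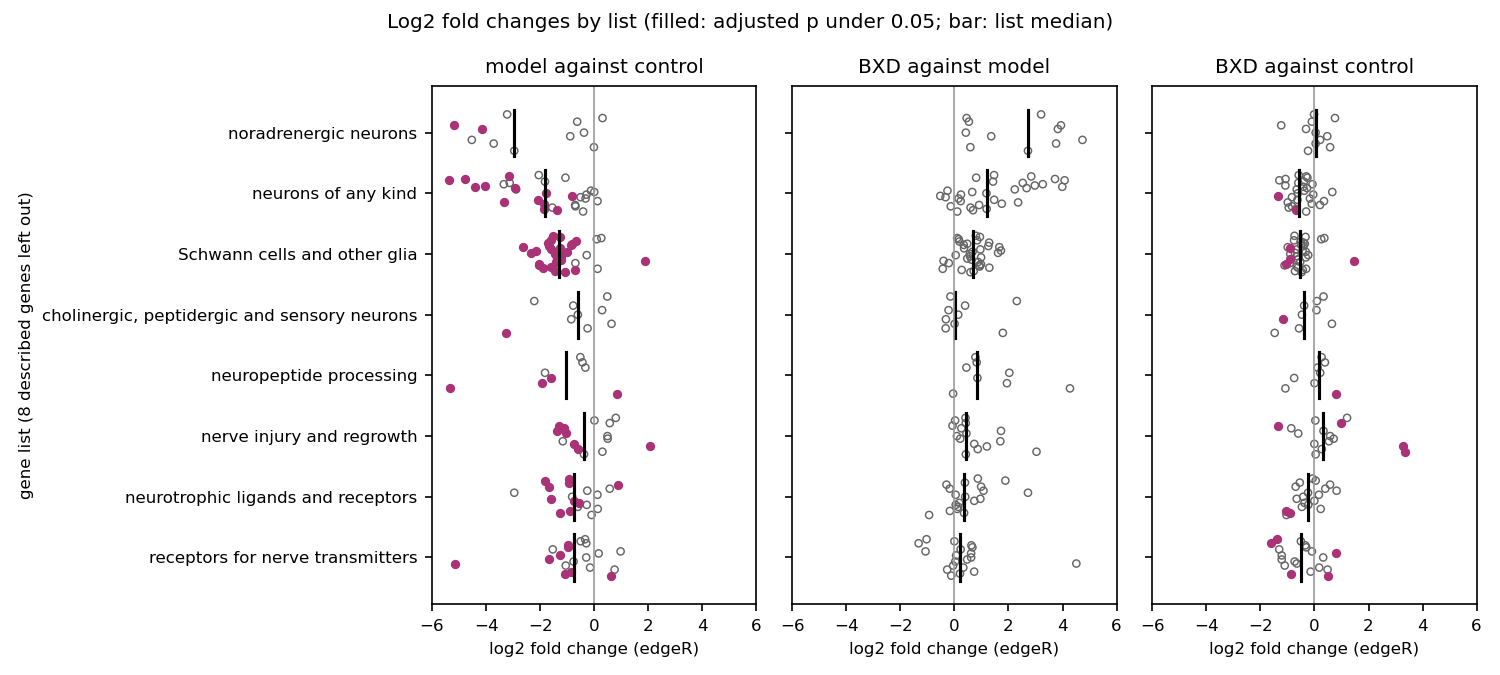
Log2 fold change of every tested gene of 8 nerve lists in the 3 comparisons, from edgeR, with the 8 described genes left out. Filled points passed an adjusted p under 0.05 and bars are list medians. Model against control holds 64 different genes called lower, and a gene of several lists is drawn in each. BXD against model holds 0 called genes with most points above 0.

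Levels of the 8 described genes in all 3 groups were known when they were chosen. How their groups lie against each other, BXD against model included, therefore only describes that choice and supports nothing. Model and control did not overlap for S100b and Gal in the higher direction, as for 28.9% of all tested genes, and for Sox10 and Uchl1 in the lower, as for 29.4%, or 58.3% in either direction. BXD and control did not overlap for Gal, higher, and Sox10, lower, as for 48.6% of all genes. Gal was among the genes tested only through its counts in the stressed groups. In BXD against model, which shares the model libraries with the first of these, edgeR called 0 of 8 beside 0.0615% of all genes (0.0546% higher and 0.00683% lower), and 5 were higher and 1 lower at an unadjusted p under 0.05. DESeq2 called 2 higher, Sox10 and Gal, and limma on FPKM called 0. The authors' deposited q-values for S100b, Dbh, Th and Gap43 in this comparison were 0.264, 0.152, 0.297 and 0.961. BXD lay above model without overlap for 6 of the 8, namely Sox10, Dbh, Th, Uchl1, Prph and Gal, as it did for 10.5% of all genes. That count of 6 also only describes the choice. Of the 137 nerve genes besides these, edgeR called 0 in BXD against model, with 51 higher and 4 lower at an unadjusted p under 0.05. The share of all genes under that unadjusted p is not given here. DESeq2, fitted to 183 genes of these lists, called 20 higher and 1 lower, where it called 5.76% of all genes. With limma on FPKM, 1 of the 137 was called higher.

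Levels of different genes can be set side by side only per length, as FPKM, which divides by gene length as well as depth. S100b was the most abundant in each group, at 152 ± 21.7 FPKM in control, 267 ± 54.1 in model and 179 ± 66.0 in BXD (SD, n = 3 each). In control the order went on with Uchl1, Prph, Dbh, Gap43, Sox10, Th and Gal, from 32.4 ± 35.5 FPKM to 0.13 ± 0.11 FPKM (SD, n = 3). Neighbours among Uchl1, Prph, Dbh, Gap43, Sox10 and Th did not differ beyond their spread, whereas Gal, at 0.19 FPKM or less, lay below every control library of the other genes. In model Gap43 (11.2 ± 5.83 FPKM) and Gal (9.11 ± 1.70 FPKM) came next after S100b, with ranges that overlapped, and Th was last at 0.19 ± 0.33 FPKM (SD, n = 3 each). In BXD Gal stood next after S100b at 31.2 ± 13.5 FPKM, ahead of Uchl1 at 23.8 ± 18.4 FPKM, and these overlapped, while Sox10 was last at 3.68 ± 1.50 FPKM (SD, n = 3 each).

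The genes most like each described gene were taken by the root mean square (RMS) difference of log2 CPM, each gene centred on its own mean over the 9 libraries, among 12950 genes averaging at least 1 CPM. This is a description over libraries that share groups. Sox10 was nearest to Insc, a regulator of spindle orientation (RMS difference 0.47), then to Asap3 (0.48) and Mypop (0.51), and S100b to Atf2, a transcription factor, and Scp2, the sterol carrier protein, at 0.09 and 0.10. Dbh was nearest to Slc6a2 at 0.47, the neurofilament Nefl at 0.58 and Th at 0.60, and Th to Dbh, the ganglionic nicotinic receptor subunit Chrna3 at 0.70 and the granin Scg2 at 0.83. Uchl1 was nearest to Cend1, Syn2 and Tubb3 (0.24, 0.33 and 0.38), and Prph to Rab6b, Lgi3 and Tubb3 (0.29, 0.30 and 0.31), so the neuronal tubulin Tubb3 stood near both. Gap43 was nearest to the axonal surface protein Thy1, Syt5 and Islr2, at 0.39, 0.40 and 0.41. Gal was nearest to the metallothioneins Mt2A and Mt1, metal-binding proteins induced by glucocorticoids and zinc, at 0.81 and 0.83, and then to Trh, the precursor of thyrotropin-releasing hormone, at 1.30. Mean levels of Mt2A were 18.7, 439 and 978 CPM in control, model and BXD, those of Mt1 20.1, 482 and 1044 CPM, and those of Trh 0.59, 6.84 and 20.01 CPM. None of these 3 genes came as near to Gal as the nearest gene of any other described gene did to it. Gal also varied most about its own mean, with an RMS of 3.19. The others ran from 0.54 for S100b to 3.07 for Th, so RMS differences of different genes are not on a common scale.

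Markers of other cells that could bring in such transcripts were measured in the same libraries. Pnmt, the enzyme that makes adrenaline in the adrenal medulla, reached at most 0.58 CPM. With Chga, Chgb and Slc18a1, which sympathetic neurons or related cells also make, that list summed to 0.70 to 16.8 CPM in control, 0.09 to 1.61 CPM in model and 2.59 to 17.4 CPM in BXD, with Chgb at up to 14.8 CPM. The 5 pigment cell genes summed to 14.9 to 23.8 CPM in control, 18.9 to 21.2 CPM in model and 17.1 to 22.4 CPM in BXD. Most of that sum came from Mitf, a transcription factor also made by mast cells and macrophages, at up to 21.04 CPM, and from Pmel, at up to 3.19 CPM. Dct reached 0.81 CPM, and Mlana and Tyrp1 reached 0.08 and 0.07 CPM and were at 0 in all model libraries. Ins1 and Ins2, the islet insulin genes, were at 0 in 8 libraries and at 1.19 and 0.56 CPM in control replicate 3. The 9 genes of the gastric mucosa summed to 1.40 to 2.27 CPM in control, 1.49 to 4.25 CPM in model and 1.00 to 1.96 CPM in BXD, and Atp4a, its proton pump, reached 0.15 CPM. Smooth muscle markers moved between the groups as well: 7 of 12 fell and 0 rose in model against control, and their sum was 5392 to 8015 CPM in control, 2739 to 4634 CPM in model and 7389 to 11150 CPM in BXD. The part of the smooth muscle and adipocyte shifts in the nerve and glia results was not tested.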

How the data were processed

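Scripts started from the authors' deposited estimated counts per gene, with FPKM beside them, per the file headers. The submitters' processing notes name HISAT2 2.2.4, Bowtie2 2.2.5 and Rnor_6.0. The counting tool and strand setting are not given in the sources used here, so reads of overlapping or antisense genes may be mixed. Of the deposited estimated counts, 88.8% were whole within 1e-09, and all were rounded. The authors' deposited table of log2 fold changes and DESeq2 q-values is quoted by name. A further 54 columns of per-sample values and an omeprazole group were not used here.

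A quasi-likelihood model (edgeR 4.0.16, R 4.3.3) with TMM scaling, filterByExpr and group as the only term was fitted to 9 libraries, with Benjamini-Hochberg adjustment over 14643 genes. The biological coefficient of variation was 23.3%. DESeq2 1.42.0, limma 3.58.1 on log2(FPKM + 0.1) and log2(FPKM + 1), other scalings, no filter, a replicate block and each library left out were alternatives, and the edgeR step was tested on simulated data. Fold changes on the FPKM scale understate low genes. The SE of a log2 fold change comes from its F statistic. Replicates differed beyond sampling noise (chi-square per degree of freedom 13.5 to 49.3). Intervals and the floor of 3 counts cover counting error only.

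The 8 genes and the 10 nerve and 13 cell marker lists were chosen with earlier results of these data known. From each nerve list up to 4 called genes per direction with the smallest p and a mean of at least 1 CPM were named, or 2 where 0 were called, and for each of the 8 genes the 3 most like it. Further genes named (Galr3, Spx, Gpr151, the tissue markers and Cadps values) serve only to describe levels, and a few genes that the rule takes are not reported here. Promoter windows came from RefSeq (GRCr8).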

Additional observations from a re-analysis of the deposited data

How the results depend on the processing

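The results were recomputed under 18 planned settings and 1 chosen after seeing the data. Genes called without 1 library each ranged from 4317 to 6890 for model against control (6177 with all), 1 to 154 for BXD against model (9) and 2728 to 4775 for BXD against control (4444). Nerve genes besides the 8 ranged likewise from 35 to 66 lower (64) and 3 to 7 higher (5) in model against control, and from 4 to 15 lower (11) and 3 to 9 higher (7) in BXD against control. Leaving out control replicate 2 and BXD replicate 3 together, the added setting, gave 4088, 0 and 1811 genes called, 33 nerve genes lower in model and 1 lower in BXD against control. BXD against model called 16 genes without a filter on low counts, 1 with 2 groups only, 1093 with DESeq2, 25 with FPKM + 0.1 and 29 with FPKM + 1. Nerve genes called there were 20 higher and 1 lower with DESeq2, and 1 higher with either FPKM setting. The DESeq2 counts are over 183 nerve genes in place of 137. Nerve genes higher in model numbered 3 with library size alone and with either FPKM setting. In BXD against control, lower nerve genes numbered 27 with library size alone, 23 with upper quartile scaling, 18 with DESeq2, 26 with FPKM + 0.1 and 27 with FPKM + 1, and higher ones 3 with either FPKM setting. The replicate block gave 41 lower nerve genes in model and 1 gene called in BXD against model. Same-numbered libraries correlated at -0.42 to 0.07, with 0 of 9 pairs over 0.1, so the samples share only a number and no pairing was assumed. Library size alone moved the median of all genes in model against control to -0.28, and the noradrenergic, neuronal and glial medians kept their sign. With single libraries left out, Gap43 ranged from -0.56 to 0.23 in BXD against model (0.06 without BXD replicate 1), -0.45 to 0.58 in model against control and -0.50 to 0.36 in BXD against control, where Prph, Uchl1, Dbh and Th ranged from -0.93 to 0.71, -1.05 to 1.16, -1.82 to 1.64 and -1.65 to 2.95 and so turned sign too. The cause was not tested. With fewer than 3 counts in the control group, the depth sets only a range for the Gal fold.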

Other observations

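Close relatives of the described genes, by sequence family or enzyme class, were measured as well, and 23 of 28 were tested. In model against control 4 were called higher and 2 lower, beside 21.6% and 20.6% of all tested genes, with a median log2 fold change of -0.03. Bap1 and Uchl5, ubiquitin hydrolases of the family of Uchl1 that most cells make, rose by 0.82 (SE 0.12, adjusted p = 0.00115 in edgeR) and 0.62 (SE 0.14, adjusted p = 0.00745) on the log2 scale. S100a9, a neutrophil protein of the family of S100b, rose by 0.92 (SE 0.26, adjusted p = 0.0206) in model and by 1.69 (SE 0.26, adjusted p = 0.00225) in BXD against control, while S100a4, made by fibroblasts and leukocytes, fell by 0.50 (SE 0.17, adjusted p = 0.0371) in model. Marcks, a membrane protein of the class of Gap43, fell by 0.97 (SE 0.13, adjusted p = 0.000889) in model and by 1.08 (SE 0.13, adjusted p = 0.00099) in BXD against control. Des, the muscle filament desmin and a relative of Prph, was at 131, 153 and 282 CPM in control, 156, 90.4 and 95.2 CPM in model and 672, 292 and 383 CPM in BXD, without overlap between BXD and the other groups, and was called higher in BXD against control (log2 fold change 1.25, SE 0.38, adjusted p = 0.0355). S100a8, the partner of S100a9, was called higher there by 1.89 and Tph1, the tryptophan hydroxylase related to Th, lower by 2.01.

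Among the marker lists for other cells, model against control had the following calls, where 21.6% of all tested genes were called higher and 20.6% lower. The lymphatic endothelium list had 1 of 13 tested genes higher (Lyve1) and 4 lower (among them Prox1, the transcription factor of lymphatic identity, which fell by 1.83), the interstitial cells of Cajal list 1 of 5 higher and 1 lower, the fibroblast list 2 of 8 lower and the brown adipocyte list 6 of 9 higher. The adrenal cortex list had 2 of 4 higher and 1 lower. The adrenal medulla list besides Pnmt held the neuronal genes Chga and Chgb, of which 0 of 2 were called, and the melanocyte (2 tested), gastric endocrine (2), gastric mucosa (1) and lymphocyte (12) lists had 0 calls. The islet list had 0 tested genes.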
